A study of Rattus norvegicus with 10 samples.

Results

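Liver transcripts of the growth hormone and insulin-like growth factor (IGF) axis were followed after burn injury in the rat. The members are 8 genes: Igf1, Igfbp1, Igfbp2, Igfbp3, Igfals, Ghr, Jak2 and Socs2. Every probe set (a group of short array probes for a transcript) whose only gene symbol in the array's probe table is one of these was taken, which gave 21 of the array's 8799 probe sets. They cover 8 of the 4737 genes with such a probe set. Values were available for 10 one-colour arrays in 5 groups of 2 arrays. The groups were sham rats, labelled 0 h, and burned rats at 1, 4, 8 and 24 h after the injury, all with RNA from liver. No sham group stands beside the burned rats at 1, 4, 8 or 24 h. Time after the burn therefore cannot be told apart from time of day, feeding state or time since handling. Strain, sex, age, the extent of the burn and what sham and burned rats otherwise received are not given in the sources used here. Nor do they tell if a group's pair of arrays stands for separate animals, a pool or 1 RNA sample read again. The p-values therefore cover the spread between arrays, which can be purely technical.

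Growth hormone binds its receptor Ghr on hepatocytes, which activates the tyrosine kinase Jak2 and, through it, the transcription factor Stat5b. Stat5b drives liver transcription of Igf1, the growth factor that carries much of the hormone's effect, of Igfals, the acid-labile subunit, and of the feedback inhibitors Socs2 and Cish. In plasma most IGF-I is held in a ternary complex with Igfbp3 and Igfals, while the smaller binding proteins Igfbp1 and Igfbp2 form binary complexes that can leave the circulation. Liver Igfbp1 is known as an acutely regulated gene that insulin represses and that glucocorticoids, glucagon and stress induce.

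The promoters of Igfbp1 and Igf1 are shown because Igfbp1 was called higher than sham at 1 h and 4 h, where Igf1 was not. Both were called lower at 24 h, Igf1 on some of its probe sets. Textbook knowledge also ties Igfbp1 to insulin and glucocorticoids. Each line is the 250 bases before the start site in RefSeq on build GRCr8, plus strand, at chr14:86261027-86261276 for Igfbp1 and chr7:24172282-24172531 for Igf1. Capitals mark matches, on either strand, to the letters searched: CAAAACA and CAAAATA, as in insulin response elements bound by Foxo factors, TTCNNNGAA, as in Stat5 sites, and AGAACA, a glucocorticoid receptor element's inner letters.
Igfbp1: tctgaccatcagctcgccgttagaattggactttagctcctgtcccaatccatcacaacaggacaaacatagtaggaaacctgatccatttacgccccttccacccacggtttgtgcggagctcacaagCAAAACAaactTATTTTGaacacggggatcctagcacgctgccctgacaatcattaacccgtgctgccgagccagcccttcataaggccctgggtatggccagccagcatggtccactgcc
Igf1: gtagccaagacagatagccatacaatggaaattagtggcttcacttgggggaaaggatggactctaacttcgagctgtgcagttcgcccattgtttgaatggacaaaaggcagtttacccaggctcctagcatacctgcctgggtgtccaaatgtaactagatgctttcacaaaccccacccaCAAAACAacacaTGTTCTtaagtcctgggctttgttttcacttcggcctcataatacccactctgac
The Igfbp1 promoter held CAAAACA at -121 to -115 and CAAAATA, as TATTTTG, at -110 to -104 from the start site. The Igf1 promoter held CAAAACA at -67 to -61 and AGAACA, as TGTTCT, at -55 to -50. Of 33469 rat promoters of this length, 5.46% held CAAAACA, 4.46% CAAAATA, 7.67% TTCNNNGAA and 17.5% AGAACA. Promoters were held for 7 of the 8 genes. Ghr had AGAACA, as TGTTCT, at -93 to -88, and the windows of Igfals, Igfbp2, Igfbp3 and Jak2 had none of these letters. None of the searched motifs overlapped another in these windows. Igfbp1 and Igfbp3 are neighbours on chromosome 14, with 0 protein-coding genes between them in RefSeq GRCr8. These matches are letters in a window, and binding was not measured.

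Median intensity lay between 100.1 and 131.1 over the 10 arrays. The share of probe sets brighter than the floor used here, 36.4, was 70.3% to 76.8% by array. Hepatocyte markers were high on every array: the summed intensity of the 5 of 6 markers on the array was 182166 to 220505 in sham, 246453 to 257719 at 8 h, above sham, and 189255 to 206416 at 24 h. The 7 of 10 Kupffer cell and phagocyte markers on the array summed to 3838.3 to 4317.4 in sham, 2955.3 to 3088.8 at 4 h and 2956.4 to 3045.1 at 24 h, and Itgam was under the floor on 9 arrays. For sinusoidal endothelium, 5 of 10 markers summed to 702.2 to 706.4 in sham, 446.6 to 780.6 at 8 h and 726.2 to 751.1 at 24 h. Stellate cell markers, 8 of 10 on the array, summed to 13443.6 to 17097.8 in sham, 12296.9 to 13345.9 at 8 h and 12397.9 to 12898.8 at 24 h, both below sham, with Des under the floor on all 10 arrays. Most of this sum was Sparc, at 14308.9 and 11008.2 in sham and 10379.1 and 10485.3 at 24 h. Col1a2 and Col3a1 also lay below sham at 24 h, Vim and Col1a1 within it and Acta2 above it, and the Pdgfrb arrays were far apart. Of the 6 stellate markers tested, 0 were called against sham. Pancreatic acinar genes moved with the groups: the sum of the 13 of 14 on the array was 9555.8 to 10204 in sham, 44004.5 to 46506.4 at 1 h, 2275.4 to 2335.4 at 4 h, 13267.6 to 13597.1 at 8 h and 2087.5 to 2515.4 at 24 h. The part of these markers in the results below was not tested. In whole tissue, fewer cells of a type and less RNA per cell cannot be told apart.

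Of the 21 probe sets, 19 were bright enough to be tested, with at least 1 for every gene. The other two, both Jak2, ran from 6.1 to 85.7 (AJ000557cds_s_at) and from 9.3 to 44.7 (U13396_at). Changes are log2 differences of group means with the standard error (SE) of the limma fit. A change was called when its p, adjusted by Benjamini-Hochberg over all 5285 probe sets tested, was under 0.05. Folds are ratios of geometric means after low values were raised to the floor. At 1 h, 1 of 19 member probe sets was called, where 1.44% of all tested probe sets were, and at 4 h it was again 1 of 19, where 4.35% of all were. At 8 h, 4 of 19 were called, all lower than sham, against 3.5% of all probe sets called in either direction and 1.95% called lower. At 24 h, 10 of 19 were called, all lower and covering 5 genes, against 10.3% of all called and 6.34% called lower. The median log2 change of the 19, in time order, was 0.03, -0.05, -0.37 and -0.88, beside 0.015, -0.037, -0.10 and -0.044 over all tested probe sets. The moderated F statistic for all 4 burn groups together called 11 of 19, where 15.3% of all were called. Several probe sets read the same transcript, so these counts are not counts of independent genes.

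**Figure D1:**
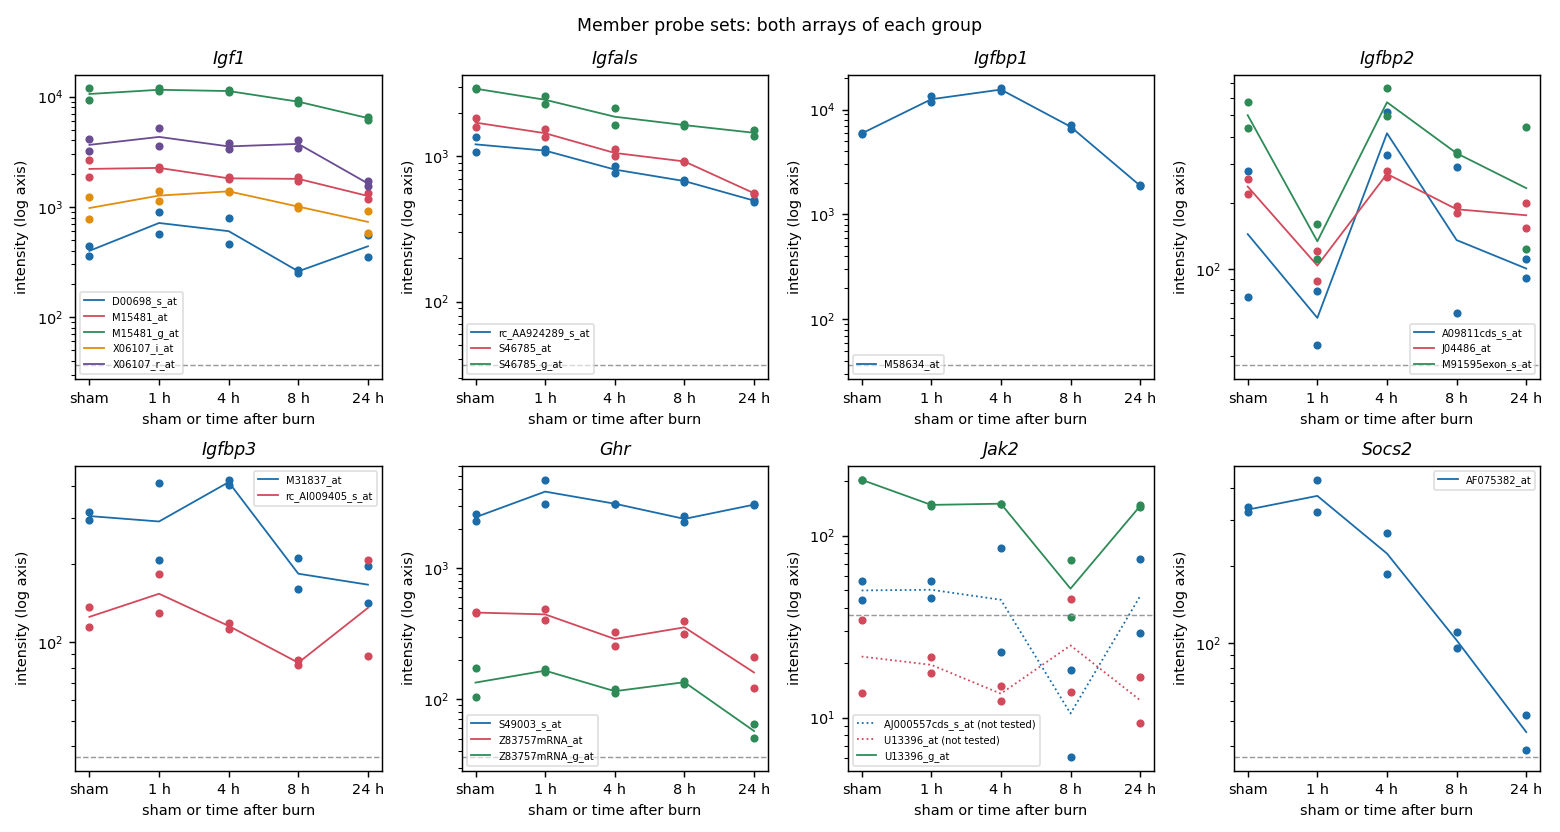
Intensity (log axis, arbitrary units) of every member probe set on each of the 10 arrays, by group from sham to 24 h. Points are single arrays, lines join geometric means of the 2 arrays, the dashed line is the floor of 36.4 and dotted lines are the 2 Jak2 probe sets that were not tested. The Igfbp1 points at 24 h (1903.3 and 1855.1) lie below those of every other group, and Socs2 at 24 h (38.8 and 53) lies near the floor.

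Igfals transcript was lower at each later time, and the fall passed the test at 8 h and 24 h. Its product keeps the ternary complex in the circulation and is made in hepatocytes. On S46785_at the 2 arrays read 1826.5 and 1592.9 in sham, 1540.6 and 1349.1 at 1 h, 997.1 and 1115.2 at 4 h, 910.3 and 933.6 at 8 h, and 559.3 and 554.6 at 24 h. No neighbouring groups overlapped, so the order from high to low was that of time. The change from sham was -0.89 (SE 0.16, 1.85-fold lower, adjusted p = 0.0351) at 8 h and -1.61 (SE 0.16, 3.06-fold lower, adjusted p = 0.00165) at 24 h, and at 4 h it was -0.69 with an adjusted p of 0.0639. A second probe set, rc_AA924289_s_at, read 1074.6 and 1359.4 in sham, 688.8 and 662.2 at 8 h and 488 and 503.1 at 24 h. It was called lower at 8 h (-0.84, adjusted p = 0.0474) and at 24 h (-1.29, adjusted p = 0.00522). The third, S46785_g_at, read 2908 and 2934.2 in sham and 1525.6 and 1380.7 at 24 h, a 2.01-fold fall with an adjusted p of 0.0145, and at 8 h it was -0.83 with an adjusted p of 0.0545. The 8 h calls rested on each library: without any 1 of the 10 arrays, adjusted p was 0.0582 to 0.16 for S46785_at and 0.0718 to 0.17 for rc_AA924289_s_at. At 24 h, S46785_at was called in all 17 alternative analyses, and leaving out any single sham or 24 h array ended the S46785_g_at call, with an adjusted p of at most 0.0852.

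Igf1, the growth factor itself, was not called at 1, 4 or 8 h and fell at 24 h on 3 of its 5 probe sets. The brightest, M15481_g_at, read 9414.4 and 11859.6 in sham, 11878.3 and 11203.1 at 1 h, 11052.7 and 11418.9 at 4 h, 9300.8 and 8699.4 at 8 h, and 6186.2 and 6591.9 at 24 h. Only the 24 h arrays stood far below all others on it. The 24 h change was -0.73 (SE 0.17, 1.65-fold lower, adjusted p = 0.0366) on M15481_g_at, -0.82 (1.76-fold lower, adjusted p = 0.0468) on M15481_at and -1.16 (2.24-fold lower, adjusted p = 0.0267) on X06107_r_at. X06107_r_at read 3209.1 and 4150.6 in sham and 1726.3 and 1536.7 at 24 h. The other two probe sets were not called at any time: X06107_i_at had a 24 h change of -0.42 (adjusted p = 0.444) and D00698_s_at one of 0.14 (adjusted p = 0.862). On D00698_s_at the 24 h arrays read 347.4 and 553.7 around the sham arrays of 445.3 and 356.8. Its values followed those of the other Igf1 probe sets weakly, with Pearson r of -0.0019 to 0.399 over the 10 arrays, where the other pairs had 0.700 to 0.899. Which transcript forms each probe set reads is not stated in the probe table. The call on M15481_g_at was lost without any 1 of the 10 arrays (adjusted p 0.0515 to 0.163). That on M15481_at was lost without any but sham array 1 (0.0708 to 0.196), and that on X06107_r_at without either sham or either 24 h array (0.057 to 0.131).

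Igfbp3, the main partner of IGF-I in the ternary complex, is known to come in liver mostly from cells other than hepatocytes. It was not called at any time on either probe set. M31837_at read 317.6 and 294.4 in sham, 410.5 and 207 at 1 h, 404 and 421.9 at 4 h, 160.3 and 210.4 at 8 h, and 196.1 and 141.7 at 24 h. The 8 h and 24 h arrays lay below both sham arrays, with changes of -0.74 (adjusted p = 0.299) and -0.88 (adjusted p = 0.157). The second probe set, rc_AI009405_s_at, read 115.1 and 136.6 in sham and 88.7 and 207.9 at 24 h, so its 24 h arrays lay on either side of sham. The pair correlated at -0.082 over the 10 arrays, so no single course can be given for this gene. The summed Kupffer cell and phagocyte markers were 3948.1 to 3980.7 at 8 h, within the sham range, and below it at 24 h, and their part in these values was not tested.

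Igfbp1 rose early and fell below sham by 24 h. Its single probe set, M58634_at, read 5989.7 and 5824.5 in sham, 13408.5 and 11709.5 at 1 h, 15098.5 and 15906.1 at 4 h, 7164.7 and 6580.2 at 8 h, and 1903.3 and 1855.1 at 24 h. From low to high the groups stood 24 h, sham, 8 h, 1 h, 4 h, and no neighbours overlapped, although sham and 8 h did not differ by the test (0.22, adjusted p = 0.490). The gene rose at 1 h (1.09, SE 0.15, 2.12-fold, adjusted p = 0.0170) and at 4 h (1.39, SE 0.15, 2.62-fold, adjusted p = 0.00271). It fell below sham at 24 h (-1.65, SE 0.15, 3.14-fold lower, adjusted p = 0.00108). In the F test it ranked 26 of 5285 (adjusted p = 0.000223). From 4 h to 8 h it fell 2.26-fold (adjusted p = 0.00479) and from 8 h to 24 h 3.65-fold (adjusted p = 0.000745). Between the highest and the lowest group, 4 h and 24 h, a comparison chosen after these values were seen, the change was -3.04 (SE 0.15, 8.25-fold lower, adjusted p = 0.000254), in a contrast that called 5.71% of all probe sets. Leaving out any single sham or 1 h array ended the 1 h call (adjusted p 0.0774 to 0.122, change 0.99 to 1.18). The 24 h call and the step from 8 h to 24 h held in all 17 alternatives.

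Igfbp2, which is high in fetal liver and in fasting, read lower at 1 h but was not called against sham. J04486_at read 256 and 219.3 in sham, 88.5 and 121.2 at 1 h, 263.2 and 278 at 4 h, 180.4 and 193.5 at 8 h, and 153.8 and 200.1 at 24 h. Both 1 h arrays were below all other arrays on it. The 1 h change was -1.19 (SE 0.22, 2.29-fold, adjusted p = 0.0566), and it was called under quantile normalization (adjusted p = 0.0200) and with a floor at the 50th percentile (adjusted p = 0.0228). M91595exon_s_at read 436.8 and 573.2 in sham, 160.7 and 111 at 1 h and 495.6 and 662.8 at 4 h, a 1 h change of -1.91 with an adjusted p of 0.221. Its 24 h arrays were far apart, at 122.6 and 443.2, and without either of them the 1 h change was called (adjusted p = 0.0363). Its 24 h change, -1.10 (adjusted p = 0.272) in the limma fit of all arrays, was -2.03 without 24 h array 2 and -0.18 without 24 h array 1. A09811cds_s_at was also lower at 1 h in mean (-1.27, adjusted p = 0.627), but its sham arrays read 74.3 and 279.1. From 1 h to 4 h J04486_at rose 2.61-fold (1.39, SE 0.22, adjusted p = 0.0145). It was the 1 member called in that step, which called 5% of all probe sets. That call was lost when 1 h array 1 or a 4 h array was left out (adjusted p 0.0651 to 0.0868).

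**Figure D2:**
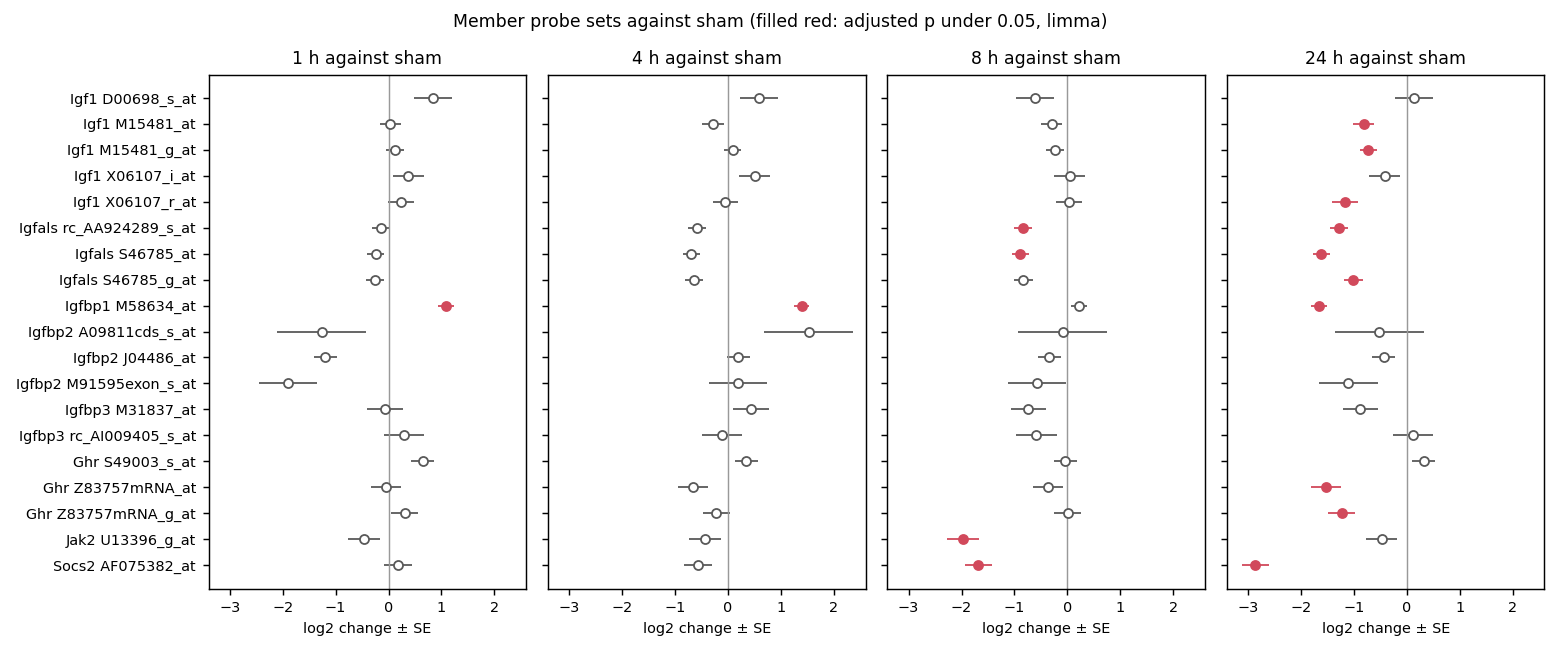
Log2 change from sham (points) with its standard error (bars) for the 19 tested member probe sets at 1, 4, 8 and 24 h, 2 arrays per group. Filled red points passed an adjusted p of 0.05. At 24 h the 10 called probe sets all lie left of 0, while the Ghr probe set S49003_s_at (0.32) and the Igf1 probe set D00698_s_at (0.14) lie right of it.

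The receptor transcript Ghr gave different answers by probe set. Z83757mRNA_at read 463.7 and 452.2 in sham, 485.5 and 405 at 1 h, 324.5 and 255.6 at 4 h, 394.5 and 316.4 at 8 h, and 208.8 and 122.3 at 24 h. Its 24 h arrays were the lowest of the 10, a change of -1.52 (SE 0.28, 2.87-fold lower, adjusted p = 0.0179). Z83757mRNA_g_at, dimmer, read 104.4 and 171.5 in sham and 50.6 and 64.5 at 24 h (-1.23, SE 0.25, 2.34-fold lower, adjusted p = 0.0259). The brightest, S49003_s_at, read 2597 and 2298.1 in sham, 3108.2 and 4725.7 at 1 h, 3107.9 and 3089.4 at 4 h, 2504.8 and 2247.8 at 8 h, and 3036.1 and 3060.8 at 24 h. It was not called at any time, and its 24 h arrays lay above both sham arrays (0.32, SE 0.22, adjusted p = 0.430). The Z83757 pair correlated at 0.805 over the 10 arrays, and S49003_s_at correlated with them at -0.108 and -0.028. The receptor gene is known to make a full-length receptor and a short, secreted binding protein, and the probe table does not say which the probe sets read. Leaving out a sham array or 24 h array 2 ended the Z83757mRNA_at call (adjusted p 0.0723 to 0.0824). That of Z83757mRNA_g_at was lost without sham array 2, either 1 h array or either 24 h array (0.0501 to 0.134), and its change shrank to -0.25 (adjusted p = 0.424) with a floor at the 50th percentile.

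Jak2, the kinase bound to the receptor, was called at 8 h alone, on its 1 tested probe set. In the limma fit with no filter, AJ000557cds_s_at had -0.46 (adjusted p = 0.827) at 8 h and U13396_at 0.15 (adjusted p = 0.584). These dim probe sets were under the floor on 4 and 9 of the 10 arrays. U13396_g_at read 202.4 and 202.9 in sham, 149.7 and 145.3 at 1 h, 149.7 and 149.8 at 4 h, 73.4 and 35.6 at 8 h, and 143.2 and 147.8 at 24 h. The 8 h arrays were the lowest of the 10, and the 1 h, 4 h and 24 h arrays lay together below sham. The 8 h change was -1.97 (SE 0.30, 3.92-fold lower, adjusted p = 0.0221), and array 2 of that group was under the floor, so the fold depends on it. Without 8 h array 1 the change was -2.48, without 8 h array 2 it was -1.47, and with a floor at the 50th percentile it was -0.74. The call was lost without either sham or either 4 h array (adjusted p 0.052 to 0.106) and under quantile normalization (0.0550). From 8 h to 24 h the probe set rose 2.81-fold (1.49, adjusted p = 0.0212), a fold that depends on the floor in the same way. That step was 0.26 (adjusted p = 0.164) with a floor at the 50th percentile and 0.99 to 2.00 with single arrays left out. Its call was lost without either 24 h array (adjusted p at least 0.0908) and under quantile normalization (0.0582).

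Socs2, a Stat5 target that damps growth hormone signalling, fell late, at 8 h and 24 h. AF075382_at read 337.4 and 323.2 in sham, 431.5 and 323.2 at 1 h, 267.1 and 186.5 at 4 h, 95.8 and 110.6 at 8 h, and 38.8 and 53 at 24 h. Sham and 1 h overlapped, and below them 4 h, 8 h and 24 h followed in order with no overlap. The change was -0.57 at 4 h (adjusted p = 0.326), -1.68 at 8 h (SE 0.26, 3.21-fold lower, adjusted p = 0.0223) and -2.86 at 24 h (SE 0.26, 7.28-fold lower, adjusted p = 0.00108). In the F test it ranked 102 of 5285 (adjusted p = 0.00156). The 24 h call held in all 17 alternatives, with a change of -1.44 when the floor was set at the 50th percentile, since the 24 h values lie near the floor. The 8 h call was lost without either sham or either 8 h array (adjusted p 0.0839 to 0.11).

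Among the steps between burn times, most member calls came after 4 h, where more of all probe sets were also called. From 1 h to 4 h, 1 of 19 was called, against 5% of all. The change from sham to 1 h is not among these steps, so they do not date a member's first change. From 4 h to 8 h, 3 of 19 probe sets were called, all lower: Igfbp1, Jak2 (-1.53, adjusted p = 0.0252) and Socs2 (-1.12, adjusted p = 0.0434). In that step 8.29% of all probe sets were called and 4.81% were called lower. From 8 h to 24 h, 7 were called, 6 lower and Jak2 higher, against 11.8% of all called and 5.94% called lower. The 6 were Igfbp1, Socs2 (-1.18, adjusted p = 0.0281), Igf1 on X06107_r_at (-1.19, adjusted p = 0.0219), Igfals on S46785_at (-0.73, adjusted p = 0.0281) and Ghr on Z83757mRNA_at (-1.14, adjusted p = 0.0433) and Z83757mRNA_g_at (-1.24, adjusted p = 0.0225). The Jak2 step from 4 h to 8 h was called in 9 of 17 alternatives. It was -0.30 (adjusted p = 0.127) with a floor at the 50th percentile, and its call was also lost under quantile normalization (adjusted p = 0.0704), with no filter (0.0518) and without any 1 of the 4 h or 24 h arrays (0.0505 to 0.112). The Socs2 step from 4 h to 8 h was called in 2 of 17 alternatives. Its step from 8 h to 24 h came to 0.00 with a floor at the 50th percentile, where both groups were at the floor. Without either 8 h or either 24 h array, the last step lost its call for Socs2 (adjusted p up to 0.139), Igf1 (up to 0.113), Igfals (up to 0.121) and Z83757mRNA_g_at (up to 0.120), and Z83757mRNA_at kept its call in 5 of 17 alternatives. The steps share arrays with the comparisons against sham.

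Other genes of the pathway were taken from 4 lists, each gene by its brightest probe set. Of 21 further genes of growth hormone receptor signalling, 17 were on the array and 16 were tested. Cish, the other Stat5-induced inhibitor, was the 1 gene of these called against sham. It read 772.6 and 716.7 in sham, 893.1 and 740.2 at 1 h, 269.6 and 170.5 at 4 h, 487.7 and 462.3 at 8 h, and 366.8 and 239.1 at 24 h. Cish fell at 4 h (-1.80, SE 0.29, 3.47-fold lower, adjusted p = 0.0163) and at 24 h (-1.33, 2.51-fold lower, adjusted p = 0.0299), and at 8 h it was -0.65 with an adjusted p of 0.283. Its lowest mean was at 4 h and that of Socs2 at 24 h, but the 4 h and 24 h arrays of Cish overlapped. Between 4 h and 24 h, 0 of the 16 genes were called in the limma fit, so the order of these times is not resolved for Cish. Leaving out a sham array or 4 h array 2 ended the 4 h call, with an adjusted p of at most 0.0814, and the 24 h call was kept in 8 of 17 alternatives. The other 15, among them Stat5b, Stat3, Jak1, Socs3 and Prlr, were not called at 1, 4, 8 or 24 h on their brightest probe sets. Of these, Stat3 had 2.18 at 4 h (adjusted p = 0.0522) and 1.70 at 24 h (adjusted p = 0.0679). Its sham arrays, 36.1 and 51.9, were near the floor. For Ptpn1, a tyrosine phosphatase, the probe sets differed at 4 h in size and call. Only rc_AI113289_s_at was called higher (2.08, adjusted p = 0.0158), and the brightest, M33962_g_at, had 1.00 with an adjusted p of 0.0645. Of its others, rc_AI180145_s_at had 1.83 (adjusted p = 0.144), M33962_at 0.41 (0.584) and rc_AI112391_s_at 0.085 (0.901). At an unadjusted p under 0.05 stood 1, 4, 1 and 5 of the 16 genes at these times, beside 12%, 17.4%, 18.6% and 25.6% of all tested probe sets. The median change of the 16 was 0.25, 0.15, -0.20 and 0.062 at these times. Of 12 further genes of the IGF system, 6 were on the array and 4 were tested (Igf2, Igf1r, Igfbp6 and Insr), and 0 were called in the limma fit at any time. On their brightest probe sets 0 of the 4 had an unadjusted p under 0.05 against sham. Igf1r on its dimmer probe set, L29232_at, had 1.13 at 24 h (adjusted p = 0.0724) and 0.81 at 1 h (adjusted p = 0.382), both with an unadjusted p under 0.05. Igf2 on X17012mRNA_s_at had 1.32 at 1 h (adjusted p = 0.228) and 1.12 at 24 h (adjusted p = 0.126). Both likewise had an unadjusted p under 0.05. The brightest Igf2 probe set, M17960_g_at, had 0.17 and -0.43 at 1 h and 24 h, and M17960_at had -0.065 and -0.39. The median change of the 4 genes was 0.33, 0.021, 0.21 and 0.23 at 1, 4, 8 and 24 h.

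Of 21 liver genes known to depend on growth hormone, 14 were on the array and 12 were tested. At 1 h 3 rose and 0 fell. At 4 h 1 rose and 1 fell, and at 8 h 1 rose and 0 fell. At 24 h 3 rose and 2 fell. Of all tested probe sets, 0.795%, 2.37%, 1.55% and 3.94% were called higher at these times, and 0.643%, 1.99%, 1.95% and 6.34% lower. In the limma fit 7, 4, 9 and 8 of the 12 had an unadjusted p under 0.05, beside 12%, 17.4%, 18.6% and 25.6% of all. The median change of the 12 was 0.33, -0.21, -0.36 and 0.0049, beside 0.015, -0.037, -0.10 and -0.044 over all tested probe sets. Onecut1, a hepatocyte transcription factor that growth hormone induces, read 831.5 and 885.2 in sham, 1613.8 and 1700.9 at 1 h, 355.8 and 243.5 at 4 h, 419.8 and 545.6 at 8 h, and 437.3 and 364 at 24 h. It fell at 4 h (-1.54, adjusted p = 0.0137) and at 24 h (-1.10, adjusted p = 0.0283). Cyp2c11, a male-predominant cytochrome P450 tied to pulsed growth hormone, read 3608.8 and 3631.5 in sham, 8654 and 7995.2 at 1 h, 3674.7 and 3709.7 at 4 h, 2755.1 and 2329.9 at 8 h, and 6733.2 and 6135.2 at 24 h. On this probe set it rose at 1 h (1.20, adjusted p = 0.0133) and at 24 h (0.83, adjusted p = 0.0185), the time at which Igf1, Igfals and Socs2 had fallen. Another probe set, M18363cds_s_at, was called higher at 1 h (1.81, adjusted p = 0.00243) and at 24 h (1.32, adjusted p = 0.00319). X79081mRNA_f_at was called higher at 1 h (1.45, adjusted p = 0.0125) and had 0.69 at 24 h (adjusted p = 0.0572). Cyp2a2, of the same sex pattern, rose at 1 h (1.24, adjusted p = 0.0125) and 24 h (0.88, adjusted p = 0.0150), and Hsd3b5 rose at 1 h (1.48, adjusted p = 0.0424). Cyp2a1 fell at 24 h (-1.09, adjusted p = 0.0145). Serpina3n, which is also an acute phase gene, rose at 4 h (1.56), 8 h (1.06) and 24 h (2.09). The genes of this list therefore did not move one way at 24 h. The list was not divided by sex pattern, so no single direction was set for it. Except for Serpina3n at 4 h and 24 h, each of these calls on a gene's brightest probe set was lost when 1 or more single arrays were left out.

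The fourth list held 19 regulators and hormone-responsive targets that share control with Igfbp1, of which 10 were on the array and all 10 were tested. At 1 h 1 rose and 0 fell. At 4 h 3 rose and 1 fell, and at 8 h 0 rose and 1 fell. At 24 h 0 rose and 4 fell. Of all tested probe sets, 0.795%, 2.37%, 1.55% and 3.94% were called higher at these times, and 0.643%, 1.99%, 1.95% and 6.34% lower. In the limma fit 3, 5, 2 and 6 of the 10 had an unadjusted p under 0.05, beside 12%, 17.4%, 18.6% and 25.6% of all. The median change of the 10 was 0.21, -0.0075, -0.015 and -0.71, beside 0.015, -0.037, -0.10 and -0.044 over all tested probe sets. Tat, a glucocorticoid-induced aminotransferase, had a course near that of Igfbp1, with 6052.6 and 6475.5 in sham, 14353.3 and 13315.7 at 1 h, 15003 and 14988.1 at 4 h, 7928.8 and 8206.4 at 8 h and 4453 and 4285.3 at 24 h. At 24 h its change was -0.52 with an adjusted p of 0.0619, where Igfbp1 had fallen by 1.65 on the log2 scale. Pck1, the gluconeogenic enzyme that insulin also represses, read 20047.5 and 19619.6 in sham and 7671.1 and 7485.3 at 24 h (-1.39, adjusted p = 0.00247), but at 4 h it was -0.31 with an adjusted p of 0.351, when Igfbp1 was highest. Cebpb, a transcription factor of the acute phase, rose at 4 h (1.02, adjusted p = 0.0191) and fell at 24 h (-0.70, adjusted p = 0.0472). Its second probe set, S77528cds_s_at, had 0.52 at 4 h (adjusted p = 0.180). Klf9, a glucocorticoid target, rose at 4 h (1.06, adjusted p = 0.0167), fell at 8 h (-0.88, adjusted p = 0.0435) and fell at 24 h (-1.46, adjusted p = 0.00325), while its other probe set, D12769_at, had -0.50 at 8 h (adjusted p = 0.173). Foxa2 is a hepatocyte factor known to act on the Igfbp1 promoter. It read 544.9 and 434 in sham, 209.5 and 230 at 1 h, 83.5 and 94.3 at 4 h, 381.9 and 418.7 at 8 h and 121.7 and 161.7 at 24 h. It fell at 4 h (-2.45, adjusted p = 0.000923) and 24 h (-1.79, adjusted p = 0.00295), and at 1 h it was -1.15 with an adjusted p of 0.0522. Foxa2 was thus lowest at 4 h, when Igfbp1 was highest, but was also below sham at 24 h, when Igfbp1 was lowest. Foxa2 at 4 h was called in all 17 alternatives, Tat at 4 h and Klf9, Foxa2 and Pck1 at 24 h in 16, and the other calls of this list were lost without 1 or more single arrays (adjusted p up to 0.200).

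**Figure D3:**
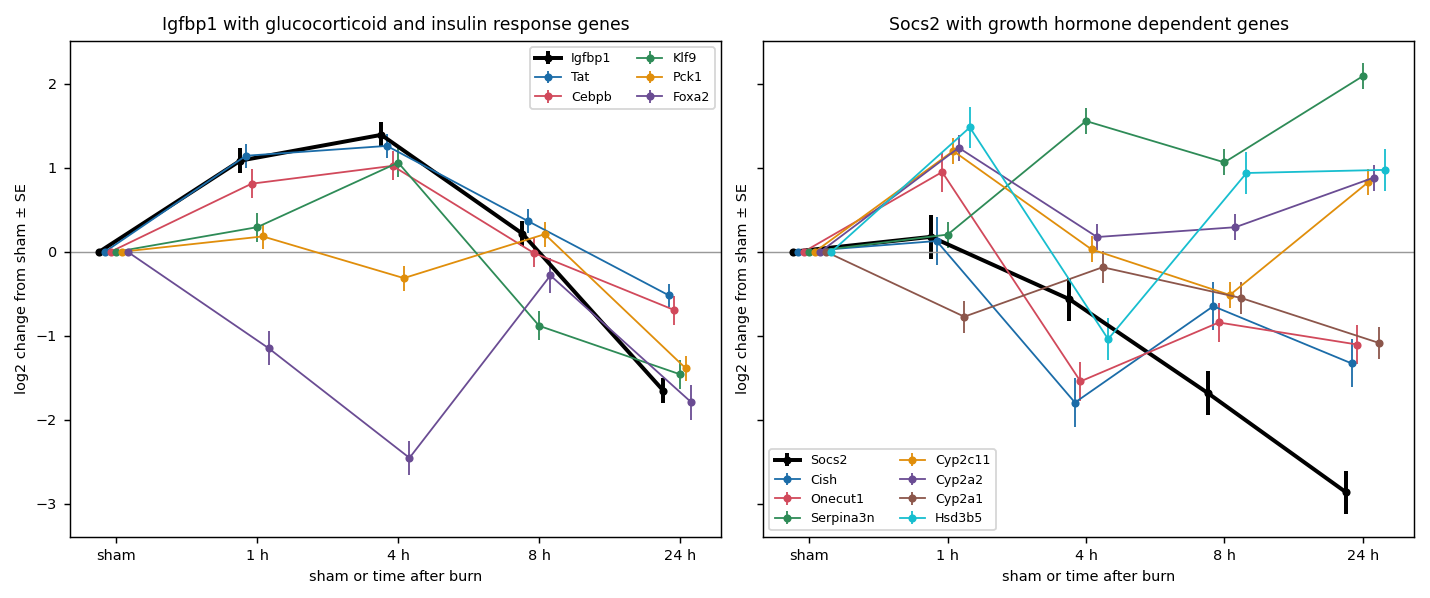
Log2 change from sham with its standard error at 1, 4, 8 and 24 h, 2 arrays per group. The left panel shows Igfbp1 with Tat, Cebpb, Klf9, Pck1 and Foxa2, and the right panel Socs2 with Cish and the named growth hormone dependent liver genes. Igfbp1 and Tat are both above 0 at 1 h and 4 h, Foxa2 is at -2.45 at 4 h, and Serpina3n (2.09) and Socs2 (-2.86) are farthest apart at 24 h.

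The named genes whose log2 values followed each called member most closely over the 10 arrays were listed as a description. All arrays of a group share their time, so these correlations reflect the group means of 5 groups. For Igfbp1 they were Pdp2 (Pearson r 0.972), Insig1 (0.972) and Foxn3 (0.971), and for Socs2 Fcer2 (0.958), Mbl2 (0.956) and Dhcr7 (0.954). For Igfals, by its brightest probe set, they were Pcyt2 (0.967), Zfp36l1 (0.942) and Proc (0.940), and for Igf1 Dmgdh (0.966), Serpina3m (0.962) and Fgf16 (0.948). For Jak2 they were Ces1c (0.970), Ndrg4 (0.964) and Car3 (0.955). For the brightest Ghr probe set, which was not itself called, they were Nnat (0.897), Gja5 (0.888) and Tvp23b (0.879). Among members of different genes, Socs2 and S46785_at of Igfals had r of 0.942, and Igfbp1 and Jak2 had -0.0036. With the Igf1 probe sets, Igfbp1 had r of 0.388 (D00698_s_at) to 0.904 (M15481_g_at).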

How the data were processed

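Each array came as deposited linear intensity values, already scaled by the authors: trimmed means, with 2% cut at each end, were 500.9 to 501. The software, array scanner settings and build are not given in the sources used here. Values below a floor of 36.4 (each array's 25th percentile, median over arrays) were raised to it before log2. Probe sets above their array's median on at least 2 of 10 arrays were tested (5285). The probe table gave 7018 probe sets 1 symbol, 308 several and left 1473 unlisted. limma 3.58.1 in R 4.3.3 fitted the 5 groups in 1 model (5 residual degrees of freedom, two-sided moderated tests), checked on simulated data. Arrays of a group correlated at 0.948 to 0.955. All members were named. List genes were named if called against sham, up to 6 a list by F test. Likeness was the 3 highest correlations with the brightest probe set of each called member. The members and lists were chosen with earlier results of these data known. The alternatives were another normalization, floor, filter, variance model, block or set of groups, and each array left out. Leave-one-out fits take a lone array to vary like the other groups. The number of arrays limits the precision.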

Additional observations from a re-analysis of the deposited data

Results flagged for a closer look

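Igfbp1 changed in opposite directions at 2 times after the burn: both 4 h arrays (15098.5 and 15906.1) lay above both sham arrays and both 24 h arrays (1903.3 and 1855.1) below them. The test of the difference itself, 24 h against 4 h in the limma fit, gave a log2 change of -3.04 (SE 0.15, adjusted p = 0.000254). It was called in all 17 alternatives, with a change between -3.12 and -3.01 and an adjusted p of at most 0.0281. This comparison was chosen after the values were seen.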

How the results depend on the processing

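Counts below are member probe sets called of the 19, in the order of the comparisons with sham at 1, 4, 8 and 24 h (1, 1, 4 and 10 as reported), then the steps to 4, 8 and 24 h (1, 3 and 7) and the F test (11). Fitting only the groups compared gave 0, 0, 0, 3, 0, 0 and 1 in the limma fits of 2 groups, with 4, 4, 8, 12, 5, 7 and 9 at an unadjusted p under 0.05, where 10.9%, 14.6%, 14.7%, 22.6%, 17.4%, 18.8% and 24.5% of all probe sets were, and over all probe sets it called 69 at 4 h and 104 at 24 h, where the fit of all groups called 230 and 543. Such a fit rests on 4 arrays. Quantile normalization gave 2 at 1 h, 2 at 8 h and 1 in the step to 8 h. A floor at the 50th percentile gave 2 at 1 h, 2 at 4 h and 4 in the step to 24 h. No filter gave 2 at 4 h, 1 in the step to 8 h and 7 in the F test. An intensity trend with robust variance gave 3 at 4 h and 2 in the step to 4 h. Leaving out 1 array gave 0 to 2 at 1 h, 0 to 2 at 8 h, 4 to 8 at 24 h, 0 to 2 in the step to 4 h, 1 to 3 in the step to 8 h, 1 to 6 in the step to 24 h and 5 to 7 in the F test. At 4 h it gave 1 each time. With a replicate block the step to 4 h had 2 calls, and no other count moved by over 1.5 times. Except for the fit of only the groups compared, counts over all probe sets under these settings are not given here. Whether the member counts moved with the whole array thus cannot be read from them. Same-numbered arrays deviated together at correlations of 0.011 to 0.170, with 5 of 10 over 0.1, so the numbers were not taken to pair the arrays. Over the single probe sets and settings, 952 values kept their side of the threshold, 331 lost and 28 gained a call. No reversal was counted, but few could be. F statistics have no direction, and leaving out an array of a group not compared leaves the change as it was. The cause of these losses was not tested, except that fewer arrays leave fewer degrees of freedom. Among members, the calls past the threshold in every alternative were Igfbp1, Socs2 and Igfals (S46785_at) at 24 h and in the F test, and Igfbp1 at 24 h against 8 h and 4 h. Dim probe sets, such as those of Jak2 and Z83757mRNA_g_at of Ghr, depend on the floor.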
